A study of Mus musculus with 41 samples.

Results

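Heart muscle genes were followed through mouse lung and liver samples. The group held 10 genes that are best known from the contracting cells of the heart, namely Myh6, Myl4, Myl7, Nppa, Actc1, Tnnt2, Tnni3, Ryr2, Pln and Sln. Their members were the array spots whose gene name equals one of these symbols, which gave 36 spots of 18 probes out of 43379 spots, 41174 probes and 27962 gene names. A gene with more than 1 probe was represented by the brightest of them. Female C57BL/6 mice (C57BL/6BomTac in the methods) were time mated, inhaled nanoTiO2 (a titanium dioxide powder of nanometre-sized particles) at 40 mg/m3 or air for 1 h per day on 11 days, and were killed 5 days after the last exposure. The methods state that the mice studied had not conceived, that they were killed by cardiac puncture, and that RNA came from randomly cut portions of the left lung and of a piece of the liver. Lung mRNA was measured in 7 nanoTiO2-exposed and 6 control (air exposed) mice and liver mRNA in 7 exposed and 8 control mice, with 12 mice measured in both tissues. Each array held the RNA of 1 mouse in Cy5 and a purchased mouse reference RNA, pooled from cell lines, in Cy3, so that every value is a log2 ratio of sample over reference unless stated otherwise.

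Cardiac muscle contracts through sarcomeres, in which myosin heads pull on actin filaments under the control of the troponin complex. Calcium released from the sarcoplasmic reticulum binds the troponins and starts each beat, and pumps then return it to the store. The atria use their own myosin light chains and secrete natriuretic peptide. In mice, cardiac muscle of the atrial kind is also known to extend from the heart along the pulmonary veins into the lung. The probes that carry the main results have the following sequences, given with the positions that the array annotation lists for its mm7 build of the mouse genome. A span longer than the probe means that the probe crosses an intron.
Myh6, brightest probe, chr14:49813005-49813064, minus strand: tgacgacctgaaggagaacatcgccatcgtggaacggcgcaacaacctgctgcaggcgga
Myh6, other probe, chr14:49811341-49812926, minus strand: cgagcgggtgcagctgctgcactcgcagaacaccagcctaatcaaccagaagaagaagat
Tnni3, brightest probe, chr7:4077835-4077894, minus strand: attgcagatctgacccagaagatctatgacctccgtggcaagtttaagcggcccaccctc
Tnnt2, brightest probe, chr1:135737607-135737919, plus strand: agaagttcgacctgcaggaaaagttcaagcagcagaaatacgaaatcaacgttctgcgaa

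The brightest and the other probe of Myl4 share 47 bases, shown in capitals, so that both read nearly the same stretch and are no independent measurements of the gene.
Myl4, brightest probe, chr11:104693162-104693532, plus strand: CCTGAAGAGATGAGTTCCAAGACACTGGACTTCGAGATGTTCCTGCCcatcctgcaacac
Myl4, other probe, chr11:104693149-104693519, plus strand: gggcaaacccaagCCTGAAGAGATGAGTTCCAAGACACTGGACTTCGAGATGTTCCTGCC

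The lung arrays lay on 4 slides, of which slide 4 held exposed mice only, and exposed and control mice always took different positions on a slide, which leaves array position and exposure confounded: they cannot be told apart. Lung and liver arrays lay on different slides and were extracted with different versions of the scanner software. Tissue and array processing therefore cannot be told apart either. The share of Cy5 spots that the scanner software called well above background was 61.3% to 67.5% on lung and 55.1% to 70.5% on liver arrays. The tissue labels matched the markers. Of 12 lung epithelial genes, 11 were tested between control lung and control liver and 11 were higher in lung, and 11 of 11 measured hepatocyte genes were higher in liver. A log2 ratio of 1 probe cannot be set against that of another, and fewer cells of a type and less RNA per cell cannot be told apart in these bulk samples.

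Heart muscle genes were measured well above background on nearly all lung arrays. Of the 10 genes, 8 were well above background on 13 of 13 lung arrays and Pln on 12. Ryr2, which encodes the calcium release channel of the heart, was at background on 13 of 13 lung arrays for its brightest probe and is given below without a fold.

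Myh6, the fast myosin heavy chain of the heart, had log2 ratios in exposed lungs of 3.26, 3.77, 3.42, 3.66, 3.74, 3.06 and 3.56 in mice 1, 7, 12, 13, 19, 20 and 23. In control lungs its log2 ratios were 3.54, 3.60, 1.93, 2.83, 3.41 and 3.17 in mice 24, 26, 27, 29, 32 and 34. The groups overlapped, and mice 27 and 29 of the control group were the lowest. Exposed lungs averaged 3.49 ± 0.26 (SD, n = 7) and control lungs 3.08 ± 0.63 (SD, n = 6). The other Myh6 probe gave 3.31 ± 0.40 (SD, n = 7) and 2.87 ± 0.82 (SD, n = 6).

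Myl4 and Myl7 encode the essential and the regulatory light chain of atrial myosin. Myl4 ran from 2.27 to 3.74 with a median log2 ratio of 2.95 in exposed lungs, and from 0.65 to 3.57 with a median of 2.81 in control lungs. Mouse 27 was lowest and exposed mouse 19 highest, and the groups overlapped. The scanner software marked the Myl7 spot as an outlier on 7 of 13 lung arrays, so that the fit dropped those arrays for this gene. The log2 ratios of Myl7 that remained were 5.57 and 5.24 in exposed mice 13 and 23, and 5.51, 5.82, 4.28 and 5.09 in control mice 24, 26, 27 and 29. With the marked spots kept, the means of Myl7 were 5.42 in exposed and 5.19 in control lungs.

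Nppa, the gene of atrial natriuretic peptide, varied most. Its log2 ratios were 2.77, 3.32, 0.74, 3.62, 4.41, 1.37 and 1.54 in exposed mice 1, 7, 12, 13, 19, 20 and 23. In control mice 24, 26, 27, 29, 32 and 34 they were 4.07, 3.89, 0.78, 0.65, 3.13 and 0.95. Both groups therefore held mice with a high and mice with a low level of this hormone transcript, and the group means of 2.54 ± 1.35 (SD, n = 7) and 2.25 ± 1.63 (SD, n = 6) lay close beside such a spread.

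The thin filament genes followed the order of the mice seen for Myh6. Tnnt2, the cardiac troponin that anchors the complex to tropomyosin, ran from 2.16 to 3.20 with a median of 2.57 in exposed and from 0.15 to 3.04 with a median of 2.34 in control lungs. Tnni3, the inhibitory cardiac troponin, ran from 3.40 to 4.72 with a median of 4.11 in exposed and from 1.54 to 4.72 with a median of 3.77 in control lungs. Actc1, the cardiac form of alpha actin, ran from 0.39 to 2.10 with a median of 1.34 in exposed and from 0.05 to 1.88 with a median of 1.05 in control lungs. For each of these thin filament genes the ranges of the groups overlapped, and control mouse 27 was the lowest of all. A probe of Tnnt2 from another transcript record stayed near 0, with a mean of 0.22 ± 0.14 (SD, n = 7) after exposure and of 0.12 ± 0.09 (SD, n = 6) in controls, so that the probes of this gene disagreed.

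Sln and Pln encode sarcolipin and phospholamban, small membrane proteins that restrain the calcium pump of the sarcoplasmic reticulum, sarcolipin mainly in the atria. Sln ran from 4.47 to 5.51 with a median of 5.10 in exposed and from 2.40 to 5.73 with a median of 4.67 in control lungs. Pln ran from 0.49 to 1.99 with a median of 1.05 in exposed and from 0.24 to 1.35 with a median of 0.58 in control lungs. The groups overlapped for both genes. The other Sln probe stayed near 0 in lung, at 0.07 ± 0.09 (SD, n = 7) and 0.03 ± 0.08 (SD, n = 6), and so disagreed with the brightest.

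**Figure D1:**
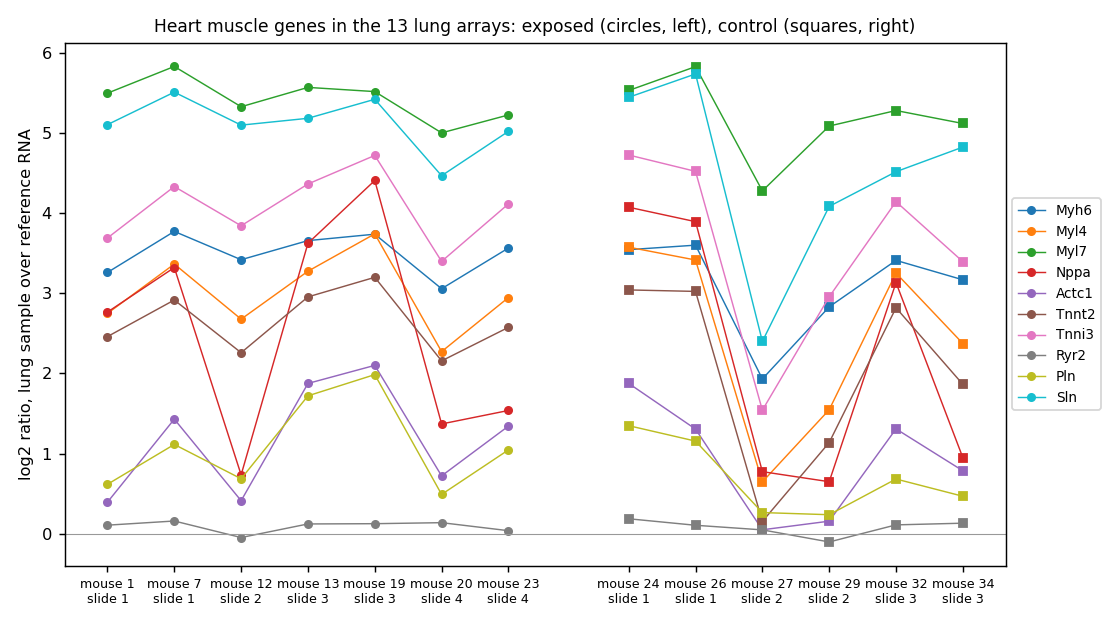
Log2 ratio of lung sample over reference RNA (vertical axis) for the brightest probe of each of the 10 heart muscle genes on the 13 lung arrays, exposed mice on the left and control mice on the right, with the slide of each array; lines join the values of a gene within a group, and Myl7 includes its marked spots. Most lines dip in control mice 27 and 29 and peak in mice 19, 24 and 26, and Ryr2 stays near 0.

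The mice kept much the same order from gene to gene. Over the 8 members measured on all lung arrays and above background, control mice 27 and 29 were among the 3 lowest for 8 of 8 members. Exposed mouse 19 and control mouse 24 were each among the 3 highest for 7 of 8 members. The animals with the highest heart muscle signal thus came from both groups, while the lowest, mice 27 and 29, were both control mice of slide 2.

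The reference channel did not stay constant for some of these genes, although it should hold the same RNA on every array. Without normalization, the Cy5 intensity of Myh6 ran from 148.5 in control mouse 27 to 7534 in exposed mouse 19 on the lung arrays, a 50.7-fold range. The Cy3 intensity of Myh6 on the same arrays ran from 17 in mouse 27 to 310.5 in mouse 19, an 18.3-fold range. On the liver arrays the Cy3 intensity of Myh6 ran only from 8 to 17, and it was well above background on 0 of 15 liver arrays against 12 of 13 lung arrays. Sln behaved alike, with Cy3 intensities of 14 to 212 on lung and 9 to 23 on liver arrays. So did Myl7, with Cy3 intensities of 83 to 885.5 on lung and 21 to 42 on liver arrays. The Cy3 intensity of Nppa ran from 19.5 to 207.5 on lung arrays, highest in mouse 19, and from 24 to 79 on liver arrays. Myl4, Tnnt2 and Tnni3 also had their lowest lung Cy3 in mouse 27 and their highest in mouse 19, over narrower relative ranges. For Myh6, Sln and Myl7 the Cy3 channel thus read high where the Cy5 channel read high. Actc1 ran the other way between the tissues, with Cy3 intensities of 529 to 916.5 on lung and 1305 to 2041 on liver arrays, while its Cy5 intensities were 552 to 4531 on lung and 141.5 to 410 on liver arrays. The lung surfactant gene Sftpc also differed between the tissues in Cy3, with a median intensity of 25786 on lung and 12.5 on liver arrays, but there the lowest and highest mice were not the same in both channels. What put this signal into Cy3 was not tested. The log2 ratio of sample over reference therefore gave a smaller difference between the tissues than Cy5 for Myh6, Sln and Myl7 and a larger one for Actc1. The Cy5 channel alone, quantile normalized between arrays, spanned 4.52 log2 units for Myh6, 5.54 for Sln and 5.84 for Nppa over the 13 lung arrays.

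Heart muscle genes were higher on the lung than on the liver arrays. Among control mice 8 of the 10 genes passed the test and all 8 were higher in lung, where 59.6% of all tested probes differed and 30% were higher in lung. The lung minus liver difference of Sln was 4.43 (SE 0.32, adjusted p = 2.8e-13 from limma) and that of Tnni3 was 4.09 (SE 0.31). Tnnt2 differed by 3.58, Actc1 by 3.55, Myl7 by 3.48, Myh6 by 3.09, Myl4 by 2.89 and Nppa by 2.37 on the log2 scale. Folds of lung over liver were also read from Cy5 after the mean signal of both channels was quantile normalized between arrays. Cy3 still enters this scale. On it the lung of control mice exceeded the liver 46.4-fold for Myl7, 22.8-fold for Tnni3, 18.9-fold for Tnnt2 and 8.61-fold for Myl4. Nppa followed with 5.08-fold and Actc1 with 4.92-fold. Sln was at least 42.6-fold higher, and was well above background in 1 of 8 control livers. The size of a tissue difference thus depended on the scale used. The difference of Pln was 0.08 (95% interval -0.36 to 0.52, adjusted p = 0.77 from limma), and that of Ryr2 was -0.06. The median over the 10 genes was 3.29. Among exposed mice 9 of 10 passed, where 61.2% of all probes did and 30.7% were higher in lung, Pln included with a difference of 0.54 (adjusted p = 0.032 from limma).

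Myh6 was the only member at background on every liver array. In liver 0 of 15 arrays had a Myh6 signal well above background, and the log2 ratios lay between -0.11 and 0.08. A bound was computed from Cy5 on the scale of the folds above, against the lowest signal well above background. By it Myh6 was at least 19.4-fold higher in control lungs and at least 34.3-fold higher in exposed lungs than in the livers of the same groups. Sln was well above background on 3, Ryr2 on 6 and Nppa on 13 of 15 liver arrays, and the other members on 15. With marked arrays dropped, the liver mean of Myl7 was 1.59 ± 0.70 (SD, n = 6) after exposure and 1.70 ± 0.70 (SD, n = 7) in controls, and that of Pln was 0.55 ± 0.13 (SD, n = 5) and 0.61 ± 0.12 (SD, n = 6). Actc1, Tnnt2, Tnni3 and Myl4 had negative liver ratios on every array measured, which means a lower Cy5 than Cy3 signal after normalization. Nppa averaged -0.11 in exposed and -0.13 in control livers. Within single mice the lung exceeded the liver in 12 of 12 animals for Myh6, Myl4, Nppa, Actc1, Tnnt2 and Sln, in 11 of 11 for Tnni3 and in 5 of 5 for Myl7. For Pln it did so in 7 of 9 mice and for Ryr2 in 6 of 12.

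**Figure D2:**
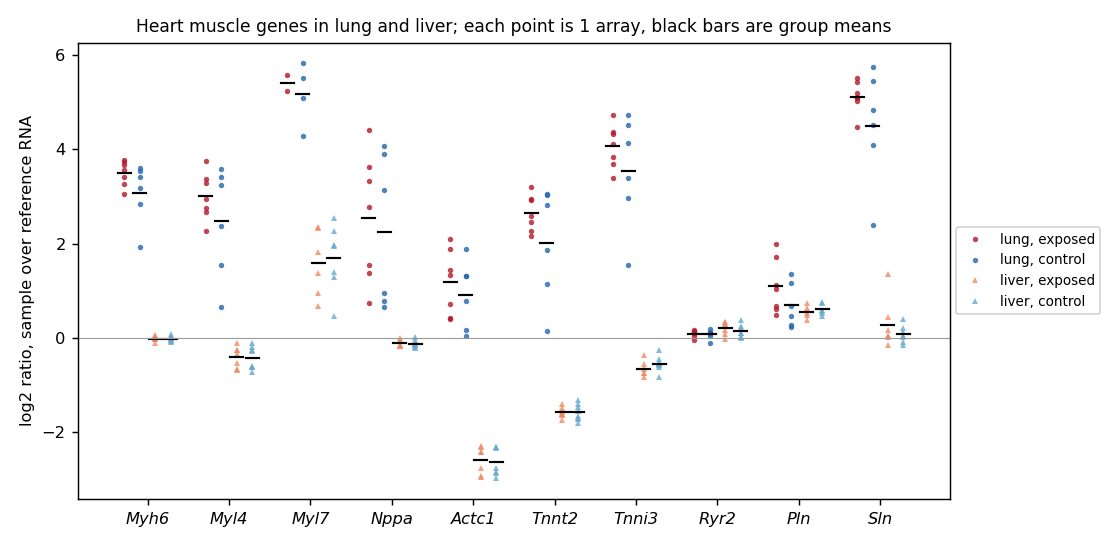
Log2 ratio of sample over reference RNA (vertical axis) for the brightest probe of each heart muscle gene in lung (circles) and liver (triangles) of exposed and control mice; each point is 1 array, black bars are group means and spots marked as outliers are left out. Lung lies above liver with no overlap for Myh6, Myl7, Actc1, Tnnt2, Tnni3, Myl4, Nppa and Sln, and the tissues overlap for Ryr2 and Pln.

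NanoTiO2 exposure changed none of the heart muscle genes in lung by the test. The comparison asked whether inhaled nanoTiO2 altered the lung transcriptome, and 0 of the 10 genes passed, where 0.202% of all tested probes did. The 10 differences, exposed minus control, ran from 0.01 to 0.64 with a median of 0.41 and were all above 0. Unadjusted p-values from limma ran from 0.088 to 0.81 and adjusted ones from 0.75 to 0.98. Myh6 differed by 0.41 (SE 0.23, 95% interval -0.07 to 0.90), with an exact two-sided permutation p = 0.122 over the arrays, and 3 of 7 exposed mice lay above every control mouse. Tnnt2 had the widest difference with 0.64 (95% interval -0.23 to 1.51) and Sln followed with 0.61 (95% interval -0.25 to 1.48). Nppa differed by 0.29 with an interval from -1.23 to 1.81. These intervals include 0 and also differences of more than 1 log2 unit, except for Myh6, Actc1, Pln and Ryr2.

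In the Cy5 channel alone the Myh6 difference was 0.86 (adjusted p = 0.68 from limma), and that of Sln was 1.00. With the scanner software's processed signals the Myh6 difference was -0.02, and with marked spots left in the background model it was -0.11. None of these passed the test. The direction therefore depended on how the signals were processed.

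The direction in lung also differed between slides. On slide 1, with exposed mice 1 and 7 and control mice 24 and 26, 0 of 8 members were higher in exposed mice, and the differences ran from -0.94 to -0.06. On slide 2, with exposed mouse 12 and control mice 27 and 29, 8 of 8 were higher, with differences from 0.02 to 1.86. On slide 3, with exposed mice 13 and 19 and control mice 32 and 34, 8 of 8 were higher by 0.41 to 1.97. Slide 4 gave no value, since it held exposed mice only. Without slide 2, an alternative chosen after seeing the data, Myl4 differed by -0.10, Tnni3 by -0.09, Sln by -0.01 and Nppa by -0.17, and 0 of 10 passed.

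In liver 0 of the 10 heart muscle genes passed, and neither did any of the 41143 tested probes (1039 had an unadjusted p under 0.05 from limma). The liver differences ran from -0.11 to 0.20, and 6 of 10 were above 0. The difference between the exposure effects of lung and liver was tested over all 28 arrays. It passed for 0 of 10 genes, where 0.141% of all probes passed, and ran from -0.06 to 0.65.

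**Figure D3:**
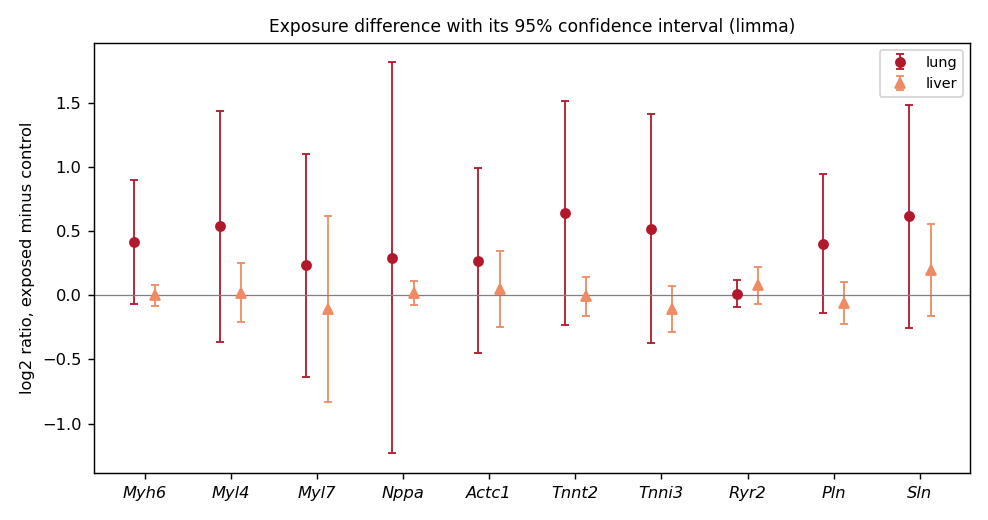
Difference of the mean log2 ratio, exposed minus control (vertical axis), for each heart muscle gene in lung (circles) and liver (triangles), with 95% confidence intervals from limma as bars. Every interval includes 0, and the lung intervals are wider than the liver intervals for most genes.

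Heart muscle genes differed more from mouse to mouse than most transcripts of the lung. Around its group mean, the SD of a member in lung was between 0.47 for Myh6 and 1.48 for Nppa, with a median of 0.84 over the 9 members above background. Without slide 2 (mice 12, 27 and 29), an alternative chosen after seeing the data, that median was 0.52. The median over 26113 probes above background on the lung arrays was 0.12. Each of the 9 members had a larger SD than 98.6% to 99.9% of those probes. In liver the SDs of the same genes ran from 0.06 to 0.70, with a median of 0.16. The median over 25660 probes above background on the liver arrays was 0.15. There the share of probes with a smaller SD ran from 0.5% for Myh6, at background in liver, to 99.4% for Myl7. For Sln it was 95.7% and for Actc1 91.5%, against 47.4% for Tnnt2 and 2.8% for Nppa.

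The members moved together across the 13 lung arrays. Pearson r with Myh6 was computed for the 9 other members, and 8 of 9 relations passed at an adjusted p of 0.05 (Benjamini-Hochberg over the 9). Tnni3 had r = 0.97 and Spearman rho = 0.85, Tnnt2 had r = 0.96 and rho = 0.86, and Myl4 had r = 0.96 and rho = 0.88, each with a permutation p of 1e-05 for r, the smallest that the permutations can give. Sln had r = 0.95 and rho = 0.86 (permutation p = 4e-05 for r). Sln, the troponins and the atrial light chain Myl4 thus followed the myosin heavy chain closely.

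The relations with Actc1, Pln and Nppa were looser. Actc1 had r = 0.78 and rho = 0.84 (permutation p = 0.00013 for r), Pln had r = 0.74 and rho = 0.91 (permutation p = 0.0033) and Nppa had r = 0.67 and rho = 0.76 (permutation p = 0.0024). Myl7 had r = 0.94 and rho = 0.89 over the 6 arrays that remained (exact permutation p = 0.0125 for r). Ryr2, at background, had r = 0.39 and rho = 0.34 (permutation p = 0.18). After Benjamini-Hochberg adjustment the p-values for r ran from 3e-05 to 0.0141 for the 8 that passed, and that of Ryr2 stayed at 0.179.

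Mice 27 and 29 lay farthest from the median of Myh6. Without them r was 0.88 for Myl4, 0.85 for Tnnt2, 0.88 for Tnni3, 0.75 for Sln, 0.76 for Actc1, 0.83 for Pln and 0.68 for Nppa. That of Myl7 was 0.40, but over only the 4 arrays left. With its marked spots kept, Myl7 had r = 0.92 with Myh6 over the 13 arrays. Slides held 2 to 4 arrays, too few for a correlation within a slide. After group and slide means were taken out, 4 of 9 relations passed. Over the 36 pairs among the 9 members without Ryr2, r ran from 0.64 to 0.99 with a median of 0.84.

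The relation with Myh6 was lost on the scanner software's processed signals, where 1 of 9 relations passed and the median r was -0.08. On that scale the Myh6 ratio spanned only 0.54 log2 units over the 13 lung arrays, from 3.70 to 4.24, while Tnni3 spanned 3.27 and Tnnt2 3.03. The members other than Myh6, Myl7, Ryr2 and Sln still moved together there, with r from 0.68 to 0.99 over 15 pairs. With Sln included, r ran from -0.42 to 0.99 and 15 of 21 pairs were positive. In the Cy5 channel alone 8 of 9 relations with Myh6 passed, with a median r of 0.96.

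**Figure D4:**
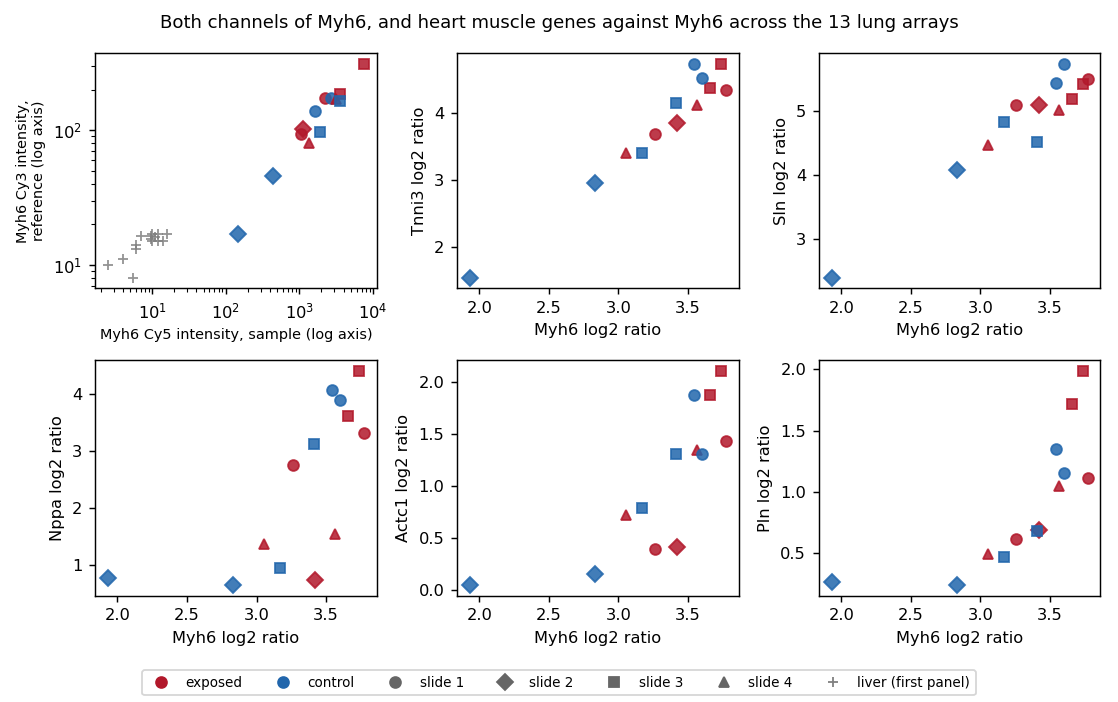
First panel, Cy3 (reference) against Cy5 (sample) intensity of Myh6 on log axes, for the lung arrays (coloured by group, shaped by slide) and the liver arrays (grey crosses); other panels, the log2 ratio of a heart muscle gene against that of Myh6 on the 13 lung arrays. Both channels rise together on the lung arrays, and each gene shown is low where Myh6 is low, most tightly for Tnni3 and most loosely for Nppa.

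Other genes of heart muscle were counted from lists of known function. Of 13 other sarcomere genes above background in lung, 10 had r with Myh6 over 0.8, where 0.403% of 19857 probes did. Among them were the titin gene Ttn with 0.90, the troponin C gene Tnnc1 with 0.92 and the atrial myosin binding gene Mybphl with 0.95. Of 11 calcium handling and excitation genes 3 exceeded 0.8, namely the calcium pump gene Atp2a2 with 0.91, Hrc with 0.95 and S100a1 with 0.80. Of 11 hormone and metabolism genes 4 did, with 0.94 for Mb, the oxygen store myoglobin, and 0.92 for Fabp3, the fatty acid carrier of heart. Of 4 heart transcription factors 0 did.

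Some genes of the lists are best known from the ventricle or from slow muscle. Myl2, the ventricular regulatory light chain, was well above background on 1 of 13 lung arrays, while its atrial counterpart Myl7 was so on 13. Myl3, the ventricular essential light chain, had r = 0.20 with Myh6 and a mean log2 ratio of -0.25 in control lungs. Myh7, the slow myosin heavy chain, had r = -0.24, although it was higher in control lung than in control liver by 4.81 (adjusted p = 6.19e-29 from limma). Nppb, the gene of the other natriuretic peptide, was well above background on 2 of 13 arrays.

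Of 17 other sarcomere genes tested, 14 were higher in control lung than in control liver and 2 lower, with a median difference of 1.68, where 30% of all tested probes were higher in lung and 59.6% differed. Of 17 calcium handling genes 12 were higher and 3 lower, with a median of 0.94, and of 16 hormone and metabolism genes 12 were higher and 2 lower, with a median of 1.26. After nanoTiO2, 0 genes of these heart lists passed in lung, where 0.202% of all probes did, and their median differences were 0.31, 0.09 and 0.18.

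Genes of other cell types were set beside the members. The mean of 5 adipocyte genes had r = 0.68 and rho = 0.73 with Myh6 over the lung arrays (permutation p = 0.003 for r, adjusted p = 0.0089 over 12 lists), and r was 0.55 without mice 27 and 29. Of these 5 adipocyte genes 0 exceeded r = 0.8. Their mean log2 ratio ran from 1.82 to 4.87 in exposed and from 1.34 to 4.31 in control lungs. The mean of 7 hepatocyte genes had r = 0.38, that of 11 smooth muscle genes 0.47, that of 13 skeletal muscle genes 0.23 and that of 4 lung epithelial genes 0.08, and adjusted p-values for r were 0.206 or more. Rank correlations were higher for hepatocyte (rho = 0.65), smooth muscle (rho = 0.65) and skeletal muscle genes (rho = 0.68), each with an adjusted p = 0.033 from permutation. Their mean log2 ratios ran from 1.23 to 3.25 and from 1.06 to 1.71 for hepatocyte genes in exposed and control lungs, from 0.80 to 1.47 and from 0.87 to 1.45 for smooth muscle genes, and from -0.78 to -0.35 and from -0.84 to 0.85 for skeletal muscle genes. The skeletal muscle value of 0.85 was that of control mouse 34, and the other lungs lay between -0.84 and -0.35. For the skeletal muscle mean, r with Myh6 was 0.95 within the exposed and 0.30 within the control lungs. Of 25 listed skeletal muscle genes, 15 were well above background on 13 of 13 lung arrays, Acta1, Myh4, Mylpf and Tnnt3 among them, and Myf5, Myf6, Pvalb and Casq1 were so on 0. The part of these cell types in the results was not tested.

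Over all genes, those whose pattern was most like the mean of the 9 members above background on the 13 lung arrays, by Pearson r among 14614 genes, were Fndc5 with 0.99, Atp2a2 with 0.98, Mapk10 with 0.98, Srl with 0.98, Mybpc3 with 0.98, 1110037P11Rik with 0.97, Hrc with 0.97, Smpx with 0.97, Myo18b with 0.97 and AK050904 with 0.97. Of these 10, Atp2a2, Mybpc3, Hrc and Smpx stood in the heart lists by name, and the probe of 1110037P11Rik is the one listed as Mybphl. The lowest r was -0.94 for E330016A19Rik, -0.92 for Lxn and for E130104P22Rik, -0.91 for Ipmk and -0.89 for Tanc2. None of these 15 genes passed the lung exposure test. These values of r are a description over the same 13 lung arrays.

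The start regions of the members were searched for motifs of muscle regulators in the 250 bases before each start (RefSeq, GRCm38.p6), on both strands, in 10 windows of 9 members. The GATA site was searched as GATA with A or T before and A or G after it, and the E box as CANNTG, which reads the same on both strands. No motif was left out for overlapping another. The CArG box, the site of serum response factor, occurred in 2 of 10 windows, where 1.47% of 32851 windows of the same length hold it. Both are shown with the box in capitals.
Actc1, chr2:114052876-114053125, minus strand: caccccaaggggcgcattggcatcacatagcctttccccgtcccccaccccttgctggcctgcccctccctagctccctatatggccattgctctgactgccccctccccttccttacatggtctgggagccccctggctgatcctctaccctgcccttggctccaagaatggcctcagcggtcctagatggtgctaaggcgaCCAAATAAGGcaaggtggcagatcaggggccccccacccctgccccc
Myl7, chr11:5898783-5899032, minus strand: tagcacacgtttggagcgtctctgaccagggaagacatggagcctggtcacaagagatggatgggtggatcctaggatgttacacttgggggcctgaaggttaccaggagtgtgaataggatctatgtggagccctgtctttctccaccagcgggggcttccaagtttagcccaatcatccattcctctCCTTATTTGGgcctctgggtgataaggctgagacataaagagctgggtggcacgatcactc

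The MEF2 site occurred in 0 of 10 windows against 2.92% of all windows, the GATA site in 5 of 10 against 26.5% and the E box in 8 of 10 against 66.2%. These matches are descriptions of the letters in the windows and say nothing of binding.

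Muscle miRNAs gave another readout of striated muscle in lung RNA of the same study, on other arrays and with mouse numbers that could not be joined to those of the mRNA arrays. These 13 arrays held 7 exposed and 6 control mice. miR-1 and the miR-133 family are made in heart and skeletal muscle, miR-206 in skeletal muscle, and miR-208a and miR-208b are cut from introns of the genes of the heart myosins, Mir208a lying inside Myh6 and Mir208b inside Myh7 on chromosome 14 of GRCm38.p6. The mature sequences below are from RefSeq with the seed, bases 2 to 8, in capitals. They show that miR-208a and miR-208b share their seed and differ at 3 positions of 22, so that their probes may cross-react.
miR-208a-3p: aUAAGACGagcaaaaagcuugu
miR-208b-3p: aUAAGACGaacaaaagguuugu
miR-133b-3p: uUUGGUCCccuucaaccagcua
miR-206-3p: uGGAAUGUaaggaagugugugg

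miR-1, miR-133a and miR-133b were above the negative controls on 13 of 13 arrays, while miR-206, the skeletal one, and miR-499 were so on 0. miR-208a and miR-208b were each above them on 2 arrays. Quantile-normalized log2 intensities of miR-1 ran from 7.84 to 9.92 with a median of 8.81 in exposed and from 6.65 to 8.65 with a median of 7.83 in control lungs. The groups overlapped, and 5 of 7 exposed mice lay above every control mouse. The difference of miR-1 was 1.03 (SE 0.41, adjusted p = 0.23 from limma, exact two-sided permutation p = 0.0431 without adjustment). miR-133b differed by 0.69 and miR-133a by 0.54 (both adjusted p = 0.28 from limma).

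None of these 3 miRNAs passed, where 2.35% of 213 tested miRNAs did. The study itself had reported miR-1, miR-133a and miR-133b as raised after exposure at an FDR under 0.05, with another model. Its methods state that some miRNA arrays were left out after a quality check, whereas every deposited one was used here. The sets of arrays may therefore differ too. It also found miR-1 raised by RT-PCR. The calls thus differ from those of the study, and the cause was not tested. Since the study had named these miRNAs from its own samples, their direction is no independent evidence. Within the first hybridization block, with 5 exposed and 4 control mice, miR-1 differed by 0.76, and within the second, with 2 and 2, by 1.76.

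Across the 13 arrays the correlation with miR-1 was computed for 7 muscle miRNAs, and 4 of 7 passed at an adjusted p of 0.05. It was r = 0.97 and rho = 0.97 for miR-133a and r = 0.98 and rho = 0.97 for miR-133b, each with a permutation p of 1e-05, the smallest that the permutations can give, and an adjusted p of 1.75e-05 for r. Without the 2 mice farthest from the median of miR-1 the values of r were 0.97 and 0.97, and within the 9 arrays of the first block they were 0.95 and 0.96. miR-208a had r = 0.88 and rho = 0.92 (permutation p = 1e-05 for r), although 11 of its 13 values did not exceed the negative controls, and r was 0.86 without those 2 mice and 0.94 in the first block. miR-206 had r = 0.49 and rho = 0.37 (permutation p = 0.091), miR-208b r = 0.21 and miR-499 r = -0.27.

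**Figure D5:**
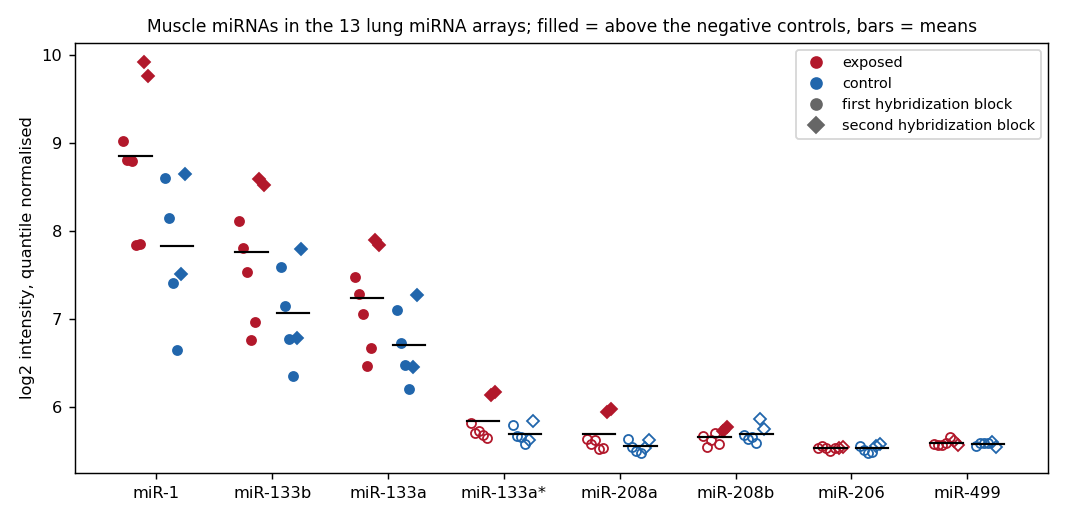
Log2 intensity after quantile normalization (vertical axis) of 8 muscle miRNAs on the 13 lung miRNA arrays; each symbol is 1 mouse, filled where it exceeds the negative control spots, with circles for the first and diamonds for the second hybridization block and black bars for group means. miR-1, miR-133b and miR-133a are filled on all arrays, and their exposed and control values overlap.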

How the data were processed

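Total RNA of 1 mouse per array was labelled with Cy5 and hybridized with a purchased reference RNA in Cy3, without dye swap. The authors deposited scanner intensities and spot flags for each array, extracted with Agilent Feature Extraction 9.5.3.1 for lung, 10.1.1.1 for liver and 9.5.1.1 for miRNA, and deposited tables of log2 values that they had normalized in R, by LOWESS for mRNA and by quantiles for miRNA. Per the file headers, probe positions are on mm7 for the lung arrays and on mm8 for the liver arrays, and only those of mm7 are given. Arrays carry no read depth, so that their number limits the precision.

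Median intensities were background corrected (normexp, offset 50), normalized within arrays by loess and averaged over the spots of a probe. Spots carrying an outlier flag were dropped. For the lung over liver folds in Cy5, the mean log2 signal of both channels was quantile normalized between arrays. Cy5 was then taken from this mean and the log2 ratio. limma 3.58.1 in R 4.3.3 was fitted to all probes with Benjamini-Hochberg adjustment at 0.05, for exposed against control in lung and in liver, for lung against liver, and for the difference between the exposure effects, the last pair over all 28 arrays. Mice with both tissues share an animal number. Exact permutation tests over 1716 splits of the lung arrays and 100000 permutations for correlations were two-sided. Well above background is the scanner software's own call. miRNA arrays were quantile normalized, and a miRNA counted as present above the trimmed mean of the negative control spots plus 3 trimmed SD (5% trimmed at each end).

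On simulated data with 200 probes changed by 1 log2 unit, the lung fit recovered 98.5% and the liver fit 98%. The tissue fit recovered 98.5% and the fit of the difference between effects 96%. These shares stand for probes of the whole array and not for the members. Lung SDs of the members above background were 0.47 to 1.48, against a median of 0.12 over probes above background. Recovery at the spread of the members was not computed. The members, gene lists and tests were chosen with earlier results of these data known. The genes named are the 10 members, genes of the lists on which a comparison turns, the 10 genes most and the 5 least like the members by r, and the listed miRNAs. Alternatives covered background correction, marked spots, normalization, the sample channel alone, the authors' tables, slide and animal as blocks, the choice of probe, and leaving out each replicate.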

Additional observations from a re-analysis of the deposited data

Results flagged for a closer look

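Sln in liver stood out in 1 animal. Exposed mouse 23 had a Sln log2 ratio of 1.35 in liver, far from the other 6 exposed livers, the next of which was at 0.43. The mean log2 ratio of 13 skeletal muscle genes was -0.51 in the same liver and between -1.32 and -0.98 in the other exposed livers, and their part in the Sln value was not tested. It was found by Dixon's test for a single distant sample, run on 35 groups of a heart muscle gene and 6 groups of a miRNA, of which chance alone marks about 1 in 20.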

How the results depend on the processing

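Members that passed numbered 0 for exposure in lung and in liver and for the difference between these effects in every alternative run. Between control lung and control liver they numbered 8, except for 9 with the sample channel alone, where Ryr2 passed too. Ryr2 was lower in lung there, with a mean log2 Cy5 intensity of 5.91 in control lung and 6.04 in control liver. It was at background on every lung array. Over these settings 19 values of single genes changed sign, none of them past the threshold. For the lung exposure difference these were Myh6 (-0.11) and Nppa (-0.11) with marked spots left in the background model, Myh6 (-0.020), Myl7 (-0.11) and Sln (-0.17) with processed signals, and Myl7 (-0.43) with slide as a fixed block. With slide 2 left out, chosen after seeing the data, they were Myl4 (-0.10), Myl7 (-0.26), Nppa (-0.17), Actc1 (-0.0080), Tnni3 (-0.093) and Sln (-0.013). Leaving out 1 mouse at a time gave -0.068 to 0.45 for Myl7 (negative without control mouse 27) and -0.028 to 0.66 for Nppa (negative without control mouse 27 or 29 or exposed mouse 19). The tissue difference of Pln was -0.56 with processed signals and -0.051 to 0.17 with 1 mouse left out (negative without control mouse 24 or 26). The relations with Myh6 that passed numbered 1 with processed signals, 4 after group and slide means were taken out and 7 to 8 with 1 mouse left out. The median share of probes that a member exceeded in SD was 99.6%, against 98.6% with marked spots in the background model, 97.8% with processed signals, 98.9% without slide 2 and 99.2% to 99.7% with 1 mouse left out (lowest without control mouse 27). The cause of these changes was not tested.

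Lung and liver of an animal were paired through its number. Deviations of the same animal from their group means correlated between -0.07 and 0.22 over 12 mice, above 0.1 in 4. With the mouse as a replicate block, 8 members differed between control lung and control liver and 0 in the difference between exposure effects, which changed no call.

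The 6 to 8 mice per group and the wide spread in lung limit the precision, and at background, as for Ryr2 in lung, no level can be read.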
